A study of Mus musculus with 10 samples.

Results

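The collagen genes of mouse are described here as they were expressed in differentiating mouse embryonic stem (ES) cells. Members were all rows of the deposited RPKM table whose symbol is Col, a number, the letter a and a number, with no further letters, which gave 41 of 21937 gene symbols. They were sorted by textbook classes into 11 fibrillar collagens, 8 basement membrane collagens and 22 others. RPKM is a read count divided by transcript length and by library depth, so levels of different genes can be set side by side per length. The RefSeq gene table holds 44 symbols of this form, of which Col6a3, Col6a5 and Col26a1 were not listed under those symbols and were not counted as members.

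Total RNA was sequenced from 10 libraries of C57BL/6 ES cells, 1 library for each condition and day. In SFEB culture, a serum-free culture of aggregates that leads to neuroectoderm, 6 libraries came from wild-type (WT) cells, Tet3 knockout (KO) cells and Tet3 KO cells with Dkk, on days 6 and 10. In the other culture, which holds fetal bovine serum (FBS) and does not permit neural differentiation, 4 libraries came from control (CTL) and Tet3-overexpressing cells on days 4 and 7. Tet3 oxidises methylated cytosine in DNA, and Dkk is a secreted inhibitor of Wnt receptors. The KO cells came from mice with floxed Tet3 alleles, whose floxed exon was removed by transient Cre. The labels give no number of clones, no dose of Dkk, and neither the vector nor the promoter of the overexpressed Tet3. With 1 library a group, each difference below is between a pair of libraries, without a replicate check.

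Collagens are proteins of 3 chains wound into a triple helix, and each kind of chain has its own gene. Fibrillar collagens form the tension-bearing fibres of connective tissue, made mostly by mesenchymal cells, cartilage and bone. Type IV collagen forms the sheet-like network of basement membranes, on which epithelia, including the neural epithelium, rest. Other collagens sit on fibrils, form beaded microfilaments or span the cell membrane. Newly made chains are hydroxylated and folded in the endoplasmic reticulum, trimmed outside the cell and then cross-linked.

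Depth was estimated from the steps of low RPKM values. The Dkk-treated KO of day 10 had 36900000 reads, the other 5 libraries of SFEB culture 10100000 to 11300000, and those of FBS culture 17100000 to 43900000. Tet3 stood at 0.96 and 5.87 RPKM in CTL cells on days 4 and 7, and at 12.5 and 14.1 RPKM in overexpressing cells. In the 4 KO libraries it stood at 6.59 to 14.3 RPKM and in WT at 8.11 and 10.2 RPKM, and a whole-gene value does not check the loss of a single exon. The pluripotency gene Pou5f1 stood at 206.9 to 1186 RPKM in the FBS libraries and at 3.06 to 58.1 RPKM in the SFEB libraries, all of which the labels call embryonic stem cells.

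Of the 41 members, 31 reached 1 RPKM in at least 1 library, 13 reached 10 RPKM and 7 reached 50 RPKM. At least 1 RPKM in all 10 libraries was seen for 7 members. The 10 members below 1 RPKM everywhere were Col4a3, Col4a4, Col6a4, Col6a6, Col7a1, Col17a1, Col19a1, Col20a1, Col24a1 and Col28a1. Among them are the chains of the mature kidney basement membrane (Col4a3 and Col4a4, at most 0.01 and 0.02 RPKM) and of skin anchoring structures (Col7a1 and Col17a1, at most 0.83 and 0.16 RPKM). Col7a1 at 0.83 and Col25a1 at 1.23 RPKM lay just outside and just inside 1 RPKM. In a comparison a member was used if it reached 1 RPKM in at least 1 library of that culture, which held for 29 members in SFEB and 24 in FBS.

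The summed level of all members was 243.0 RPKM in WT, 292.7 in KO and 283.0 in Dkk-treated KO on day 6. On day 10 it was 174.2 in WT, 986.8 in KO and 223.5 RPKM in Dkk-treated KO. In the FBS culture it was 246.8 in CTL and 294.5 in Tet3-overexpressing cells on day 4, and 742.7 and 290.9 RPKM on day 7. The KO library of day 10 and the CTL library of day 7 thus stood well above the other 8, which lay between 174.2 and 294.5 RPKM. Fibrillar collagens held 603.8 RPKM of the sum in the KO on day 10 and 371.1 RPKM in CTL on day 7, and 39.0 to 88.1 RPKM in the other libraries. Basement membrane collagens held 285.8 and 332.1 RPKM there, and 116.4 to 212.0 RPKM elsewhere. Each sum rests on few genes, since the 4 highest members held 61.7% to 86.2% of it.

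**Figure D1:**
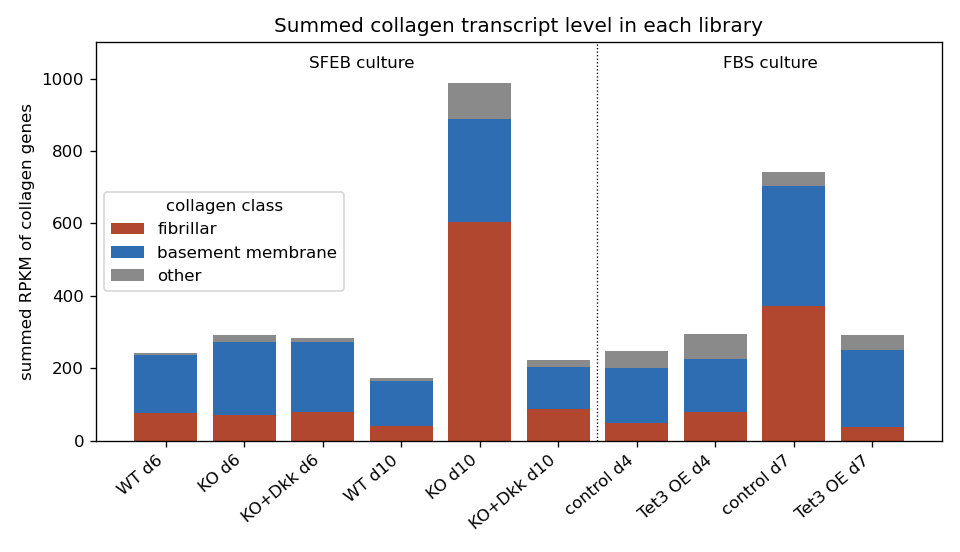
Summed RPKM of the 41 collagen genes (vertical axis) in each of the 10 libraries (horizontal axis; d, day; OE, overexpression), split into fibrillar, basement membrane and other collagens. The KO library of day 10 (986.8 RPKM) and the CTL library of day 7 (742.7 RPKM) stand above the rest, mostly through the fibrillar share.

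The first comparison asks how collagen genes differ between Tet3 KO and WT cells in neural culture. On day 10, 23 of 29 members stood at least 2-fold higher in the KO and 0 lower, among them 7 of 9 fibrillar, 5 of 6 basement membrane and 11 of 14 other collagens. Of all 12912 genes compared, 8.26% stood at least 2-fold higher and 1.96% lower. The median log2 ratio was 1.66 over members and 0.06 over all genes, with ratios taken as differences of log2(RPKM + 0.5), which understates changes of low genes. By class the median was 2.96 for fibrillar, 1.18 for basement membrane and 1.85 for other collagens. On day 6 the count was 6 of 29 higher and 0 lower, against 4.88% and 2.18% of all genes, with a median of 0.38. In these bulk samples more cells of a type and more RNA per cell cannot be told apart.

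The filter bears on such counts, since 7 of the 29 members reached 1 RPKM, among the SFEB libraries, in the KO of day 10 alone (Col5a2, Col8a1, Col8a2, Col12a1, Col14a1, Col15a1 and Col16a1). Members were therefore also chosen by the FBS libraries, which this comparison does not use. Of 24 such members, 20 stood at least 2-fold higher on day 10, with 0 lower, against 7.08% and 1.36% of genes chosen the same way. Of the 13 members that reached 1 RPKM in WT cells on day 10, 11 were higher, against 5.23% of such genes.

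Among fibrillar collagens, Col3a1, the chain of type III collagen of soft connective tissue, was at 0.88 RPKM in WT, 2.61 in KO and 0.37 in Dkk-treated KO on day 6, and on day 10 at 20.5, 381.8 and 37.2 RPKM. In the FBS culture it was at 9.94 in CTL and 15.6 in overexpressing cells on day 4, and on day 7 at 147.4 and 5.15 RPKM. It was the highest member in the KO on day 10 and in CTL on day 7. The KO to WT log2 ratio of Col3a1 was 1.17 on day 6 and 4.19 on day 10 (95% counting interval of the read ratio 4.14 to 4.30, which covers counting error only).

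Col1a1 and Col1a2 encode both chains of type I collagen, the main collagen of bone, tendon and skin. Col1a1 was at 1.13, 1.50 and 0.78 RPKM in WT, KO and Dkk-treated KO on day 6, and on day 10 at 1.27, 67.6 and 6.46 RPKM. Its KO to WT log2 ratio on day 10 was 5.27 (counting interval 5.42 to 6.06 without the pseudocount), the highest of any member in that comparison. Col1a2 was at 1.41, 7.33 and 2.88 RPKM on day 6, and on day 10 at 1.85, 69.1 and 6.08 RPKM. On day 6 the chains differed, with a log2 ratio of 2.04 for Col1a2 (interval 2.01 to 2.74) and 0.30 for Col1a1 (interval -0.06 to 0.88). In the FBS libraries Col1a1 was at 12.4 and 26.5 RPKM in CTL and overexpressing cells on day 4, and on day 7 at 103.7 and 9.72 RPKM, and Col1a2 at 9.64, 17.6, 58.5 and 5.59 RPKM in the same order.

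Col5a1, a chain of type V collagen that starts fibril assembly, was at 6.35, 8.22 and 7.77 RPKM in WT, KO and Dkk-treated KO on day 6, and on day 10 at 3.78, 37.5 and 9.09 RPKM. Its partner Col5a2 stood lower in every library, at 0.06 to 3.37 RPKM in the SFEB culture with the highest value in the KO on day 10. Col11a1, of the type XI collagen of cartilage fibrils, was at 4.18, 2.41 and 3.61 RPKM on day 6, and on day 10 at 1.54, 15.4 and 3.30 RPKM. From day 6 to day 10 its log2 ratio was -1.20 in WT cells and 2.45 in KO cells. Type XI also takes chains from Col11a2 and from Col2a1, which encodes type II collagen as well, the main collagen of cartilage. Col2a1 was the highest fibrillar member on day 6, at 59.8, 45.5 and 61.5 RPKM, and stood at 9.58, 26.7 and 23.3 RPKM on day 10. It was thus lower in KO than in WT on day 6 (log2 -0.39, counting interval -0.47 to -0.32) and higher on day 10 (1.43, interval 1.34 to 1.62). Col11a2 was the only member of the 29 with a day 10 ratio below 0, at 0.74 RPKM in WT and 0.68 in KO (log2 -0.07, interval -0.71 to 0.52).

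**Figure D2:**
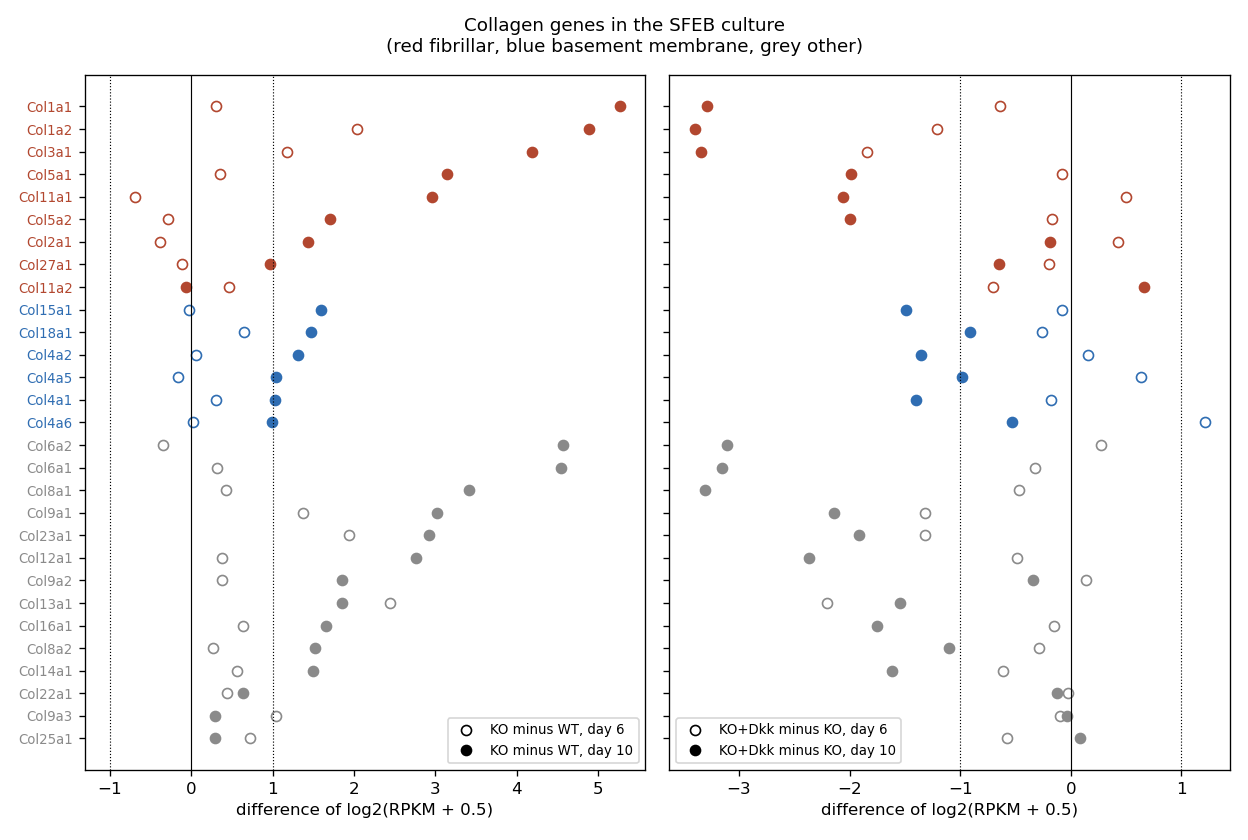
Differences of log2(RPKM + 0.5) (horizontal axes) for the 29 collagen genes compared in SFEB culture (vertical axis), KO minus WT at left and Dkk-treated KO minus KO at right. Open circles are day 6, filled circles day 10, and dotted lines mark 2-fold; on day 10, 23 genes lie at or beyond 2-fold at left and 19 at right.

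Stretches of promoter are shown for 4 members that stood at least 2-fold higher in the KO on day 10, to let their sequence be compared. They are the 130 bases before the RefSeq gene start in build GRCm38.p6, read on the gene's strand, from chr6:4505488-4505617 (plus strand, Col1a2), chr1:45311408-45311537 (plus, Col3a1), chr2:27886295-27886424 (plus, Col5a1) and chr10:76726045-76726174 (minus, Col6a1). Capitals mark a match to the CCAAT box, to TATAAA and to GGGCGG, on either strand. The expression values, made on mm9, were joined to these genes by symbol only.
Col1a2: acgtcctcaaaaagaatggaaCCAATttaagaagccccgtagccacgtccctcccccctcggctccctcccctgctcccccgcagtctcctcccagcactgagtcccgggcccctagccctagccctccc
Col3a1: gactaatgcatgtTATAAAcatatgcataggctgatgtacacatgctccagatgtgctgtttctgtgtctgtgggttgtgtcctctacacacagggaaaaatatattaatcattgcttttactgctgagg
Col5a1: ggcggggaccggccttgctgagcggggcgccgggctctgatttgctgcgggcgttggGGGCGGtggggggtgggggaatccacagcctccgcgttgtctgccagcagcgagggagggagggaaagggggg
Col6a1: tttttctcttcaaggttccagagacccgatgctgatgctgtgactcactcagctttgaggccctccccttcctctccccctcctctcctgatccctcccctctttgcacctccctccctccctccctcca
No motif is shared by the 4 stretches, with 1 CCAAT in Col1a2, 1 TATAAA in Col3a1, 1 GGGCGG in Col5a1 and none in Col6a1. The same stretch of Col23a1, not shown, held 1 CCGCCC, which is GGGCGG on the other strand, as in Col5a1. In windows from 250 bases before to 50 bases after the start, found for 33 of the 41 members (some with several), CCAAT or ATTGG was in 36.1% of 36 member windows and in 37.4% of all 32851 windows. TATAAA or TTTATA was in 13.9% and 13.6%. GGGCGG or CCGCCC, the letters of a GC box, was in 61.1% of member windows, 35.7% of all windows and 46.2% of windows of protein-coding genes. These are matches of letters, with no measure of factor binding.

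Among basement membrane collagens, Col4a1 and Col4a2 encode the chains of the common type IV network. Col4a1 was at 65.3, 80.4 and 71.0 RPKM in WT, KO and Dkk-treated KO on day 6, and on day 10 at 68.8, 140.9 and 53.1 RPKM, with a KO to WT log2 ratio of 0.30 and then 1.03, or 0.99 when libraries were scaled to equal sums. In the FBS culture Col4a1 was at 29.9 in CTL and 25.1 in overexpressing cells on day 4, and on day 7 at 128.1 and 85.1 RPKM. Col4a2 was at 38.7, 40.4 and 45.2 RPKM on day 6, and on day 10 at 35.2, 88.2 and 34.2 RPKM in the same order, and at 16.7, 14.8, 75.1 and 45.2 RPKM in the FBS libraries. Both chains were high in the KO on day 10 and in CTL on day 7, and low on day 4.

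The ratio of Col4a1 to Col4a2 stayed between 1.55 and 1.99 in all 10 libraries, a spread of 1.28-fold, while Col4a1 itself ranged from 25.1 to 140.9 RPKM. These genes lie head to head on mouse chromosome 8, with RefSeq starts 21 bases apart on opposite strands. Because both starts fall in it, the stretch chr8:11312805-11312826 (GRCm38.p6, plus strand, the strand of Col4a2) is shown, with GGGCGG in capitals.
Col4a1 and Col4a2: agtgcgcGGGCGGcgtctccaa
Other partner chains kept their ratio less closely. Col1a1 to Col1a2 ranged from 0.205 to 1.77, with the lowest value in the KO on day 6, and was above 1 in all 4 FBS libraries. Col6a1 to Col6a2 ranged from 0.818 to 2.15, and Col4a5 to Col4a6, which lie head to head on chromosome X with starts 1343 bases apart, from 1.33 upward, a spread of 4.35-fold. Col2a1 to Col11a1 ranged from 1.36 to 18.9 and Col9a1 to Col9a2 from 0.0035 to 2.56. Ratios of members near 0 carry large counting error.

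**Figure D3:**
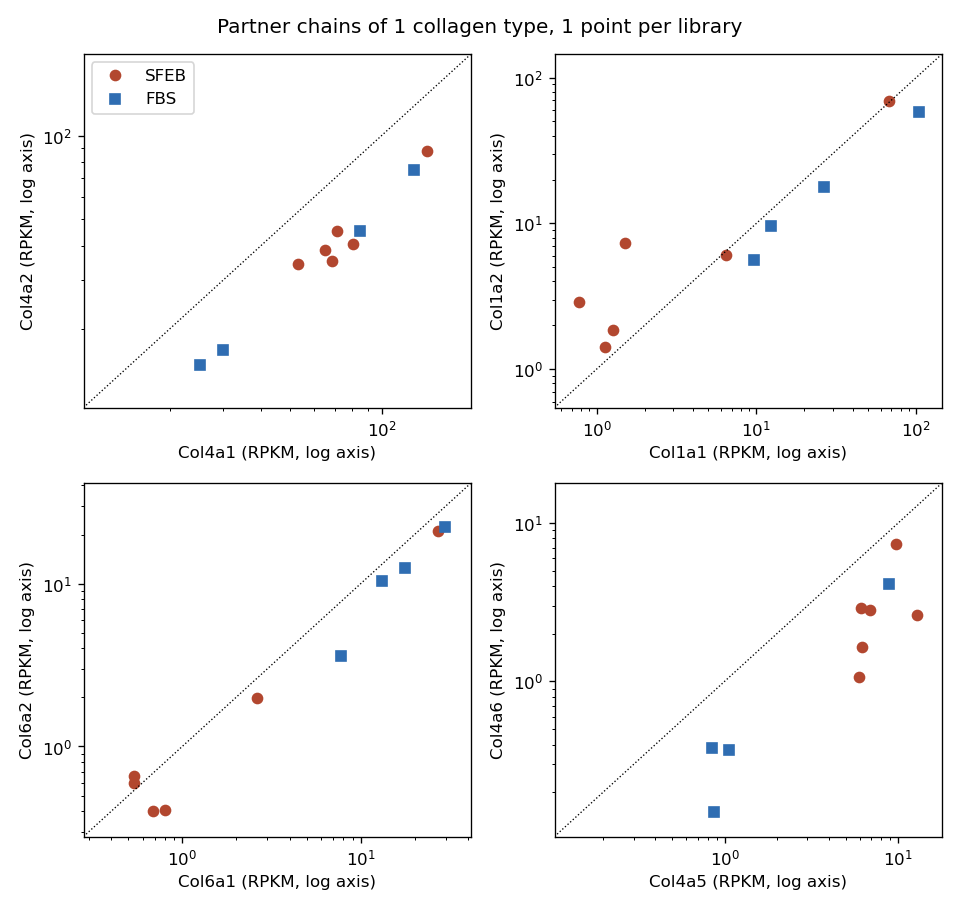
RPKM of partner chains in the 10 libraries (circles SFEB, squares FBS; both axes log; dotted line, equal levels). Col4a1 and Col4a2 follow a line parallel to that of equal levels, with ratios of 1.55 to 1.99, while Col1a1 to Col1a2 varies from 0.205 to 1.77.

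Col18a1, a basement membrane collagen whose end fragment is endostatin, was at 45.6, 72.0 and 60.2 RPKM in WT, KO and Dkk-treated KO on day 6, and on day 10 at 14.1, 39.9 and 21.1 RPKM. Its KO to WT log2 ratio was 0.65 on day 6 (counting interval 0.59 to 0.73) and 1.47 on day 10 (interval 1.39 to 1.62). In FBS it was at 102.2 and 100.5 RPKM on day 4 and 114.8 and 78.5 RPKM on day 7, the highest member in both day 4 libraries. Col4a5 was at 6.92, 6.08 and 9.76 RPKM on day 6, and on day 10 at 5.94, 12.8 and 6.21 RPKM, and Col4a6 at 2.84, 2.89 and 7.32, then 1.07, 2.61 and 1.65 RPKM. Col4a6 on day 6 was the only member at least 2-fold higher with Dkk than without (log2 1.21, interval 1.10 to 1.58). Col15a1, related to Col18a1, stayed at or below 0.18 RPKM in SFEB except for 1.41 RPKM in the KO on day 10.

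Among the other collagens, the beaded-filament chains Col6a1 and Col6a2 had the largest KO to WT ratios on day 10 with the pseudocount of 0.5. Col6a1 was at 0.54, 0.80 and 0.54 RPKM in WT, KO and Dkk-treated KO on day 6, and on day 10 at 0.69, 27.2 and 2.63 RPKM, a KO to WT log2 ratio of 4.54 on that day. Col6a2 was at 0.66, 0.41 and 0.60, then 0.40, 20.9 and 1.98 RPKM (log2 4.57 on day 10). Neither chain was 2-fold higher in the KO on day 6, and both stood at 3.60 to 29.6 RPKM in the 4 FBS libraries, above the at most 2.63 RPKM of the SFEB libraries other than the KO on day 10. Col8a1, a short-chain network collagen, was at 0.02 to 0.32 RPKM in 5 SFEB libraries and at 5.04 RPKM in the KO on day 10. Its KO to WT log2 ratio on that day was 3.41, while the counting interval without the pseudocount was 5.69 to 13.49, against 4.79 to 5.85 for Col6a1 and 5.08 to 6.40 for Col6a2.

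At least 2-fold higher in the KO on both days were 5 of 29 members, Col1a2, Col3a1, Col9a1, Col13a1 and Col23a1, and 0 were lower on both days, against 2.11% and 0.372% of all genes. With a pseudocount of 1 the day 6 ratios of Col3a1 (0.94) and Col9a1 (0.87) stayed under 2-fold. Col13a1 and Col23a1 are transmembrane collagens. Col23a1 was at 1.24 RPKM in WT, 6.18 in KO and 2.17 in Dkk-treated KO on day 6, and on day 10 at 1.57, 15.2 and 3.66 RPKM. Col13a1 was at 0.17, 3.13 and 0.29 RPKM on day 6, the largest KO to WT log2 ratio of that day (2.44, interval 3.05 to 5.98), and at 0.33, 2.49 and 0.53 RPKM on day 10. Col9a1, of the fibril-associated type IX collagen of cartilage and eye, was at 0.05, 0.92 and 0.07 RPKM on day 6, and on day 10 at 0.70, 9.22 and 1.71 RPKM. Its partner Col9a2 went from 0.64 RPKM in WT to 3.60 in KO on day 10, and Col9a3 from 0.56 to 0.80 RPKM, within 2-fold.

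In a limma model over all 10 libraries, with the days of a culture as repeats, 0 of 31 members were called for the KO effect, against 0.196% of all genes called higher and 0.0145% lower. At an unadjusted p under 0.05 there were 12 of 31 members, against 14.7% of all genes. The lowest adjusted p by limma was 0.0681, for Col23a1 (log2 2.43, SE 0.35), higher in the KO on both days, and scaling to equal sums brought it to 0.0472. That model takes the difference of an effect between days as its error, and the median KO to WT ratio of the members was 0.38 on day 6 and 1.66 on day 10.

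The next comparison asks what Dkk does to the KO culture. With Dkk, 19 of 29 members stood at least 2-fold lower on day 10 and 0 higher, against 5.23% and 1.7% of all genes, with a median log2 ratio of -1.54 over members and -0.01 over all genes. The 19 were 6 of 9 fibrillar, 3 of 6 basement membrane and 10 of 14 other collagens. Chosen by the FBS libraries instead, 16 of 24 members were lower, against 3.96% of genes. On day 6, 5 of 29 were lower and 1 higher, against 3.57% and 2.18% of genes. The same 5 members, Col1a2, Col3a1, Col9a1, Col13a1 and Col23a1, were lower on both days, as were 1.56% of all genes. This comparison and that of KO with WT share the KO libraries, so a high KO value enters both, with opposite sign.

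On day 10 the log2 ratio with Dkk was -3.29 for Col1a1, -3.40 for Col1a2 (counting interval -3.60 to -3.41) and -3.34 for Col3a1. Col6a1 and Col6a2 had ratios of -3.15 and -3.11, and Col8a1, from 5.04 to 0.06 RPKM, -3.31. Type IV chains had smaller ratios, -1.40 for Col4a1 and -1.35 for Col4a2. Col2a1 differed little, from 26.7 to 23.3 RPKM (log2 -0.19, interval -0.28 to -0.11). Col11a2 had the largest positive ratio on that day, from 0.68 to 1.36 RPKM (log2 0.66, interval 0.53 to 1.47). The limma model called 0 of 31 members for the Dkk effect, with 8 at an unadjusted p under 0.05, against 5.68% of all genes, and a lowest adjusted p of 0.295. Of all genes it called 0.0145% higher and 0.116% lower.

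Set against WT, the Dkk-treated KO had 8 of 29 members at least 2-fold higher on day 10, with 0 lower, against 4.59% and 1.68% of genes. These were Col1a1 (log2 1.98), Col1a2 (1.49), Col2a1 (1.24), Col5a1 (1.16), Col6a1 (1.40), Col6a2 (1.46), Col9a2 (1.51) and Col23a1 (1.01). Scaling the libraries to equal sums moved the median of all genes in this comparison by -0.128 and left Col23a1 at 0.99. On day 6, 1 of 29 was higher, Col4a6 (log2 1.23), and 0 lower, against 1.58% and 0.976% of genes.

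Over time, 20 of the 29 members had their highest SFEB level in the KO on day 10, the library in which 21.4% of all genes peaked, and 0 in WT on day 10, where 21.4% of genes also peaked. For the 7 members that passed the filter through the KO of day 10 alone, that peak was fixed by the filter. Chosen by the FBS libraries instead, 18 of 24 members were highest in the KO on day 10, against 19.9% of genes. From day 6 to day 10, 2 of 29 members stood at least 2-fold higher in WT and 5 lower, against 16.9% and 7.98% of genes. Higher were Col3a1 (log2 3.92) and Col9a1 (1.13), and lower were Col2a1 (-2.58), Col4a6 (-1.09), Col11a1 (-1.20), Col18a1 (-1.66) and Col27a1 (-1.20). In the KO, 19 were higher and 1 lower (Col11a2, from 1.86 to 0.68 RPKM), against 21.1% and 8.01% of genes, with Col3a1 at a log2 ratio of 6.94, from 2.61 to 381.8 RPKM. In the Dkk-treated KO, 5 were higher and 3 lower, against 17.6% and 6.81% of genes. Higher there were Col3a1 (5.44), Col1a1 (2.44), Col9a1 (1.96), Col6a1 (1.59) and Col6a2 (1.17), and lower were Col4a6 (-1.86), Col18a1 (-1.49) and Col2a1 (-1.38). These counts moved with the choices made. Among members at 1 RPKM on day 6 in the condition itself, 9 of 18 were higher in the KO, against 14.6% of genes chosen the same way. The count was 0 of 14 in WT and 0 of 13 in the Dkk-treated KO, against 12.6% of genes in either. Chosen by the FBS libraries, 16 of 24 were higher in the KO, against 15.3% of genes. In the Dkk-treated KO 12 of 29 were higher with a pseudocount of 0.1 and 8 after scaling to equal sums. The share of all genes was not taken at those settings, so these counts have no background beside them. In all 3 conditions Col3a1 was higher, and Col2a1 and Col18a1 were lower, on day 10.

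The limma model called 4 of 31 members higher and 2 lower on day 10 of the SFEB culture, against 28.2% and 18.1% of all genes. Col3a1 had a log2 difference of 5.43 (SE 0.97, adjusted p = 0.00445), Col9a1 1.95 (SE 0.57, adjusted p = 0.0287), Col6a1 2.07 (SE 0.69, adjusted p = 0.046) and Col14a1 0.89 (SE 0.30, adjusted p = 0.0477). Col18a1 was lower by -1.33 (SE 0.18, adjusted p = 0.00173) and Col2a1 by -1.57 (SE 0.32, adjusted p = 0.00713). Each had the same sign in all 3 conditions, but Col6a1 had a log2 ratio of 0.19 in WT (counting interval -0.44 to 1.24) against 4.41 in the KO. For this effect the 3 unlike conditions serve as the repeats. Without the expression filter 1 member was called, Col18a1.

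**Figure D4:**
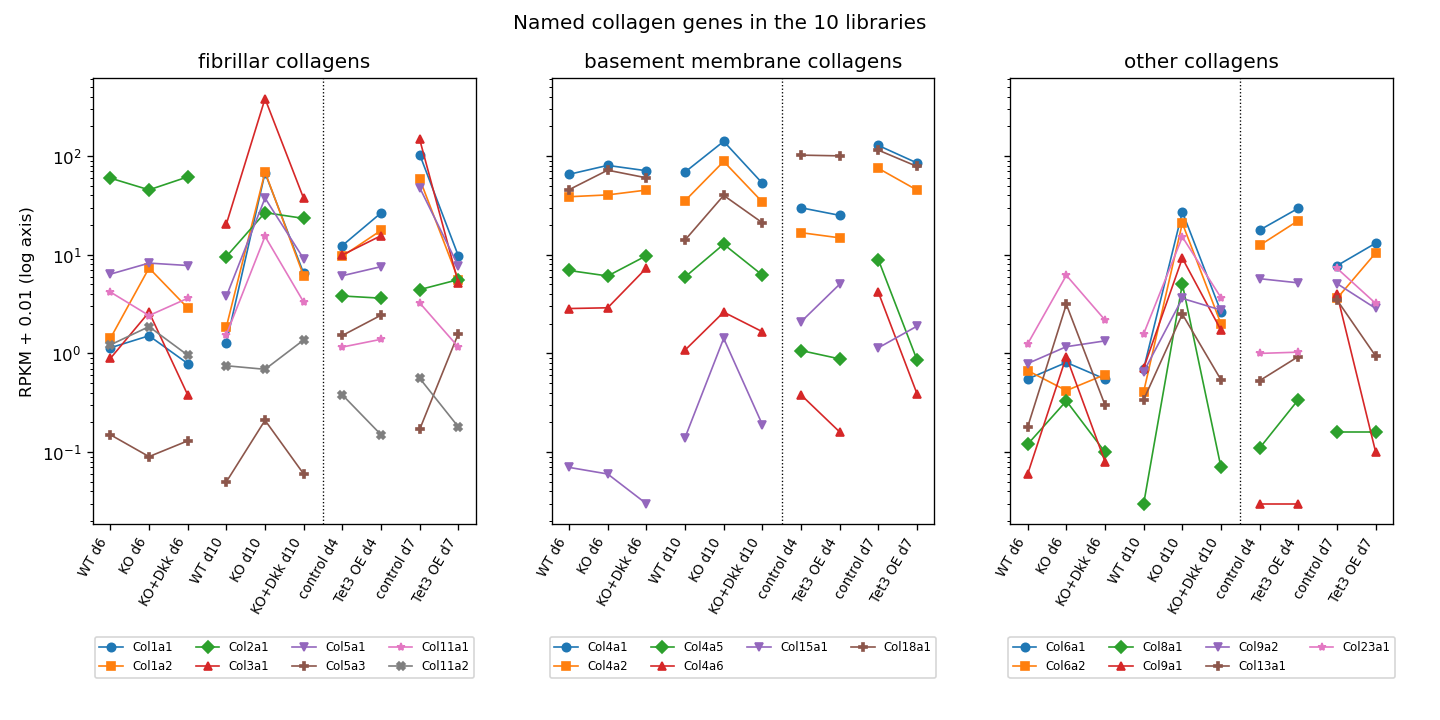
RPKM + 0.01 (vertical axis, log) of the 21 named collagen genes in the 10 libraries (horizontal axis), by class; lines join libraries of the same culture and day, and the dotted line parts SFEB from FBS culture. Most fibrillar and other collagens peak in the KO on day 10 within SFEB culture, Col3a1 at 381.8 RPKM, while Col4a1 stays between 53.1 and 140.9 RPKM there.

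In the FBS culture the question was how cells with Tet3 overexpression differ where neural fate is not permitted. On day 7, 11 of 24 members stood at least 2-fold lower in overexpressing cells and 2 higher, against 11.1% and 6.96% of 12387 genes, with a median log2 ratio of -0.73 over members and -0.03 over all genes. By class, 6 of 8 fibrillar collagens were lower and 1 higher (median -1.87), 2 of 6 basement membrane collagens were lower (median -0.66), and 3 of 10 others were lower and 1 higher (median -0.66). With a pseudocount of 1, Col11a1 and Col23a1 (both -0.98) stayed under 2-fold. The largest negative ratios were -4.71 for Col3a1 (from 147.4 to 5.15 RPKM, interval -4.97 to -4.71), -3.35 for Col1a1 and -3.28 for Col1a2. Col5a1 went from 47.8 RPKM in CTL to 7.67 (log2 -2.56), Col9a1 from 3.98 to 0.09 (-2.92), Col4a5 from 8.91 to 0.85 (-2.80) and Col4a6 from 4.15 to 0.38 RPKM (-2.40). Chosen by the SFEB libraries, which this comparison does not use, 11 of 29 members were lower, against 9.49% of genes.

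The common type IV chains had smaller ratios, -0.59 for Col4a1 and -0.73 for Col4a2, and Col18a1 had -0.55. Higher on day 7 with overexpression were Col5a3, a minor type V chain, from 0.16 to 1.58 RPKM (log2 1.66, interval 2.69 to 3.95), and Col6a2, from 3.60 to 10.4 RPKM (1.41, interval 1.37 to 1.70). Its partner Col6a1 went from 7.74 to 13.1 RPKM (0.72). Col2a1, at 4.42 and 5.59 RPKM, had a ratio of 0.31.

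On day 4, 2 of 24 members stood at least 2-fold higher with overexpression and 0 lower, against 1.72% and 3.47% of genes. These were Col1a1, from 12.4 to 26.5 RPKM (log2 1.07, interval 1.03 to 1.17), and Col15a1, from 2.08 to 5.02 RPKM (1.10, interval 1.09 to 1.45, and 0.97 with a pseudocount of 1). Col1a2 (0.84), Col3a1 (0.62), Col6a1 (0.72) and Col6a2 (0.81) had positive ratios within 2-fold. The lowest ratio was that of Col4a6, from 0.37 to 0.15 RPKM (-0.42, interval -2.05 to -0.64). The sign of the fibrillar chains Col1a1, Col1a2, Col3a1, Col5a1, Col5a2 and Col11a1 was thus positive on day 4 and negative on day 7. The limma model, which averages both days, called 0 of 31 members for overexpression, with 3 at an unadjusted p under 0.05, against 19.6% of all genes, and a lowest adjusted p of 0.187. Of all genes it called 0.0436% higher and 0.0509% lower.

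**Figure D5:**
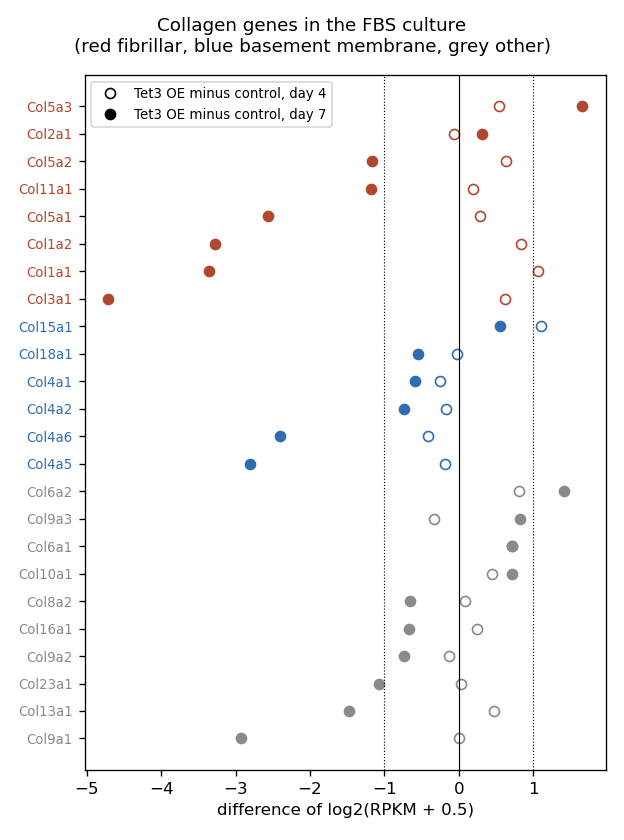
Differences of log2(RPKM + 0.5) between Tet3-overexpressing and CTL cells (horizontal axis) for the 24 collagen genes compared in FBS culture (vertical axis). Open circles are day 4, filled circles day 7, and dotted lines mark 2-fold; 11 genes lie at or below 2-fold lower on day 7 and 0 on day 4.

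From day 4 to day 7 in CTL cells, 13 of 24 members stood at least 2-fold higher and 4 lower, against 11.5% and 8.71% of genes. Of these members Col4a6, Col8a2, Col9a1 and Col13a1 reached 1 RPKM, among the FBS libraries, in CTL on day 7 alone. Of the 19 members at 1 RPKM in CTL on day 4, 8 were higher and 4 lower, against 7.55% and 9.29% of genes. Chosen by the SFEB libraries, 14 of 29 were higher and 2 lower, against 9.93% and 6.47% of genes. Col3a1 had a log2 ratio of 3.82, Col9a1 3.11, Col1a1 3.01, Col5a1 2.87 and Col4a1 2.08. Lower were Col5a3 (-1.61), Col6a1 (-1.15), Col6a2 (-1.66) and the growth-plate collagen Col10a1 (-1.34). In overexpressing cells 4 were higher and 9 lower, against 3.49% and 1.2% of genes, with Col1a1 at -1.40, Col1a2 at -1.57 and Col3a1 at -1.51. Col4a1 (1.74), Col4a2 (1.58), Col23a1 (1.28) and Col9a3 (1.05) were the 4 higher members. The limma model called 1 of 31 members between the days of this culture, Col4a1 (log2 1.91, SE 0.27, adjusted p = 0.0495), higher on day 7 in both conditions, against 0.422% of all genes called higher and 0.0291% lower. That call was absent with a pseudocount of 1, without the filter, without the expression trend and in the FBS libraries alone.

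Genes that make and handle collagen were followed in 6 lists. Of 17 folding and hydroxylation genes above the filter, 9 stood at least 2-fold higher in the KO on day 10 and 0 lower (median log2 1.04), and 3 were higher on day 6. Of all genes, 8.26% stood higher and 1.96% lower on day 10, and 4.88% higher on day 6. Serpinh1, the collagen-specific chaperone, was at 109.0, 242.0 and 202.5 RPKM in WT, KO and Dkk-treated KO on day 6, and on day 10 at 82.3, 309.5 and 173.2 RPKM. In FBS Serpinh1 was at 132.9 and 77.4 RPKM on day 4, and on day 7 at 515.6 and 124.1 RPKM, so it was highest in the KO on day 10 and in CTL on day 7, as was the collagen sum. Of 10 processing and cross-linking genes, 6 were higher on day 10 and 0 lower (median 1.45). Pcolce, an enhancer of procollagen trimming, went from 1.94 to 22.0 RPKM, and Adamts2, which trims the amino end, from 0.14 to 2.37 RPKM. With Dkk on day 10, 4 of 17 folding genes and 4 of 10 processing genes were lower and 0 higher. Of all genes, 5.23% were lower and 1.7% higher.

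Of 6 collagen receptor genes above the filter, 4 were higher in the KO on day 10 (median 1.53), against 8.26% of all genes. They were led by Itga11, an integrin chain for fibrillar collagen, from 0.07 to 6.59 RPKM, and Ddr2, a receptor kinase, from 0.16 to 4.51 RPKM. Of 5 collagen-degrading enzymes, 4 were higher (median 1.74), with Mmp2 from 3.21 to 21.4 RPKM and Fap from 0.10 to 6.58 RPKM. All 3 fibril-binding proteoglycans above the filter were higher (median 3.21), with Lum from 4.75 to 48.1 RPKM, Dcn from 1.31 to 23.5 and Bgn from 0.52 to 6.62 RPKM. Of 14 basement membrane partners, 7 were higher and 0 lower (median 1.01), with Nid1 from 7.94 to 46.3 and the laminin chain Lama2 from 0.18 to 5.65 RPKM. At least Adamts2, Itga11, Ddr2, Itga1, Lama2 and Lama4 reached 1 RPKM, among the SFEB libraries, in the KO of day 10 alone. The filter thus let them in through the library in which they were high, and the list counts were not repeated with another filter. With overexpression on day 7, 6 of 16 folding genes, 6 of 11 processing genes and 6 of 13 basement membrane partners were lower, and 0, 2 and 0 higher. Of all genes, 11.1% were lower and 6.96% higher.

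Markers of cells that make collagen differed between the same libraries. Of 12 mesenchyme and fibroblast markers above the filter, 11 stood at least 2-fold higher in the KO on day 10 and 0 lower, against 8.26% and 1.96% of all genes. On day 6, 6 were higher and 0 lower, against 4.88% and 2.18%. With Dkk on day 10, 10 were lower and 0 higher, against 5.23% and 1.7%. Their summed level was 585.0 RPKM in WT, 1040 in KO and 774.0 in Dkk-treated KO on day 10, and 256.0 to 385.0 RPKM on day 6. In FBS it was 271.0 to 295.0 RPKM in 3 libraries and 950.0 in CTL on day 7. On day 7, 10 of 13 markers were lower with overexpression and 1 higher, against 11.1% and 6.96% of all genes. Pdgfrb, a receptor of mesenchymal cells, was at 0.42, 10.7 and 0.36 RPKM in WT, KO and Dkk-treated KO on day 6, and on day 10 at 0.75, 11.5 and 1.96 RPKM. In that KO library of day 6, Dcn and Lum of the same list were at 0.84 and 0.28 RPKM. Among collagens there, Col1a1 was at 1.50, Col3a1 at 2.61, Col1a2 at 7.33, Col13a1 at 3.13 and Col23a1 at 6.18 RPKM. No marker of the 10 cell type lists was at 0 in all libraries. However, 3 of 7 surface ectoderm and 4 of 11 sclerotome and cartilage markers stayed below 1 RPKM in all of them. The surface ectoderm markers with the largest KO to WT differences on day 10 were Krt8, Krt18 and Cldn6. Whether surface ectoderm itself was present was not tested. Dcn and Lum stand in the mesenchyme list and in that of proteoglycans. The 156 names of all 16 lists are 151 different symbols, so some lists overlap and their counts are not separate.

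Cardiac muscle markers were higher in the KO on day 10 in 6 of 6 cases and endothelial markers in 3 of 7, with summed levels of 157.0 RPKM against 6.65 in WT, and 17.2 against 6.33. Of all genes, 8.26% were higher and 1.96% lower in this comparison. Sclerotome and cartilage markers were higher in 2 of 6, with sums of 23.2 and 17.3 RPKM. At least the sclerotome marker Lect1 and the endothelial markers Emcn and Tie1 passed the SFEB filter through the KO of day 10 alone. Parietal endoderm, a source of much type IV collagen, had 0 of 9 markers 2-fold apart on day 10 (459.0 and 289.0 RPKM), and visceral endoderm 1 of 6 higher (43.9 and 49.4 RPKM). Neural progenitor markers summed to 991.0 RPKM in the KO and 848.0 in WT, with 1 of 7 lower and a median log2 ratio of 0.24. Within that list Otx2 was at 7.10 RPKM in the KO and 26.3 in WT, Sox1 at 10.2 and 20.8, and Sox2 at 49.3 and 33.6 RPKM. Neuron markers summed to 1360 and 1570 RPKM, with 0 of 6 apart by 2-fold. Pluripotency markers summed to 15.7 and 45.0 RPKM, with 3 of 5 lower and 1 higher. Genes of the surface ectoderm list summed to 66.8 and 107.0 RPKM, with 1 of 4 lower. On day 6, 5 of 6 cardiac and 4 of 6 sclerotome markers were higher in the KO, against 4.88% of all genes. So were 2 of 7 endothelial, 2 of 9 parietal and 1 of 6 visceral endoderm markers. Of the surface ectoderm list, 4 of 4 genes above the filter were higher, Krt8, Krt18 and Cldn6 among them. The other 3 genes of that list stayed below 1 RPKM in all libraries. In these lists 0 were lower. Lower on that day were 3 of 7 neural progenitor and 1 of 6 neuron markers, against 2.18% of all genes. With Dkk on day 6, 5 of 6 cardiac and 4 of 6 sclerotome markers were lower than in the KO and 0 higher. So were 3 of 4 genes of the surface ectoderm list, again with 0 higher. Of all genes, 3.57% were lower and 2.18% higher. On day 10 the Dkk-treated KO still had 6 of 6 cardiac markers higher than WT, against 4.59% of all genes. In CTL cells of day 7 against day 4, 10 of 13 mesenchyme, 7 of 11 parietal endoderm, 6 of 7 visceral endoderm, 8 of 8 endothelial and 6 of 6 cardiac markers were higher. Of all genes, 11.5% were higher over that time. With overexpression on day 7, 6 of 11 parietal endoderm markers were lower and 1 higher, and 5 of 7 visceral endoderm, 7 of 8 endothelial and 6 of 6 cardiac markers were lower. Higher there were 4 of 4 neuron, 5 of 6 neural progenitor and 4 of 6 pluripotency markers. Of all genes, 11.1% were lower and 6.96% higher with overexpression on day 7. The part of any of these cell types in the collagen values was not tested.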

How the data were processed

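The authors deposited a single table of RPKM values, rounded to 2 decimals, for 21937 gene symbols in 10 libraries. Per the labels' protocols, a SOLiD kit for total RNA was used. The submitters' processing notes name HTSeq and mm9. For aligner, annotation and strand setting, nothing is given in the sources used here. Columns were matched to samples by title. Library totals were estimated from the whole-read steps of low values of 3932 genes with 1 transcript in GENCODE vM21. Of the values used, 65.7% to 78.2% came within 0.15 read of a whole number. Each total was chosen to bring those same values near whole reads, so that share is no separate check of it. Counting intervals are 95% Clopper-Pearson intervals of the read ratio, with no pseudocount.

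Ratios are differences of log2(RPKM + 0.5). A comparison took the genes that reached 1 RPKM in any library of its culture (12912 in SFEB, 12387 in FBS), and a difference of at least 2-fold was counted. limma 3.58.1 (R 4.3.3) was fitted to 13757 genes at 1 RPKM or more in any library, with culture and day, knockout, Dkk and overexpression as terms, 3 residual degrees of freedom and Benjamini-Hochberg adjustment at 0.05, and was tested on simulated data. Values in every library are given for the 6 highest members of a class and for the largest rise or fall of a comparison. Of 156 names in 16 lists, 8 were matched through older symbols. The members and lists were chosen with earlier results of these data known. Alternatives were other pseudocounts, filters, scaling to equal sums and other limma settings.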

Additional observations from a re-analysis of the deposited data

Results flagged for a closer look

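A few members went at least 2-fold in opposite directions under the same contrast, which with 1 library a condition and day was not tested. Col1a1 had a log2 ratio of overexpressing to control cells of 1.07 on day 4 and -3.35 on day 7. From day 4 to day 7 in the serum culture Col1a1 had a log2 ratio of 3.01 in control and -1.40 in overexpressing cells, Col1a2 2.54 and -1.57, and Col3a1 3.82 and -1.51. From day 6 to day 10 in SFEB culture Col11a1 had a log2 ratio of -1.20 in wild type and 2.45 in the knockout. The pairs of contrasts on Col1a1 rest on the same 4 libraries.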

How the results depend on the processing

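No count of members changed direction, and none of the named genes' ratios past 2-fold changed sign under the alternatives run. With a pseudocount of 1 the knockout had 3 members higher on day 6, overexpression 1 higher on day 4, wild type 1 higher and 3 lower from day 6 to day 10, and the knockout 0 lower over that time. With a pseudocount of 0.1 Dkk had 8 lower on day 6, the Dkk-treated knockout against wild type 2 higher and 2 lower on day 6, wild type 4 higher over time and the Dkk-treated knockout 12. With a filter of 5 RPKM, which leaves 16 members in SFEB and 14 in FBS culture, the knockout had 15 higher on day 10, Dkk 12 lower, overexpression 1 higher and 6 lower on day 7, the knockout 12 higher and 0 lower over time, and control 8 higher and 2 lower. Scaling to equal sums gave the Dkk-treated knockout 2 higher than wild type on day 6 and 8 higher over time. For these pseudocounts, the filter of 5 RPKM and the scaling, the share of all genes past 2-fold was not taken. The counts there show how the number of members moved, and cannot be set against all genes. The limma model called 1 member for the knockout after scaling to equal sums (Col23a1), and 1 between SFEB days without the filter (Col18a1). Between FBS days it called 0 with a pseudocount of 1, without the filter, without the trend and in that culture alone. The cause of these moves was not tested, apart from the fewer members left by the stricter filter. The filters taken from the other culture and from the library compared against were chosen after seeing the data. With 1 library a condition and day, no replicates could be paired, and the limma model compared conditions within a culture and day. Members below about 1 RPKM rest on few reads in the SFEB libraries of 10100000 to 11300000 reads, and values of genes with close relatives are uncertain, since the treatment of reads with several matches is not given.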

Other observations

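A collagen gene listed under an older symbol was left out by the choice of members. Emid2, now Col26a1, had 0.69 RPKM in wild type against 18.8 RPKM in the knockout on day 6, and 2.24 against 52.3 RPKM on day 10. With Dkk the knockout had 1.46 RPKM of it on day 6 and 6.22 RPKM on day 10. In serum culture control cells had 1.24 RPKM on day 4 and 8.26 RPKM on day 7, and overexpressing cells 0.13 and 0.80 RPKM. It was singled out after its values were seen. Gm7455, now Col6a5, stayed at or below 0.68 RPKM in all 10 libraries.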
